A study of Mus musculus with 9 samples.

Results

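Brain capillaries are lined by endothelial cells that seal the gaps between neighbours and decide, molecule by molecule, what crosses between blood and brain. The 10 genes described here encode parts of this blood-brain barrier. They were Slco1a4 and Slco1c1 (organic anion and thyroid hormone carriers), Slc2a1 (the glucose transporter GLUT1), Slc7a1 and Slc7a5 (cationic and large neutral amino acid carriers), Abcb1a and Abcg2 (efflux pumps), Cldn5 and Ocln (tight junction proteins) and Mfsd2a (a carrier of lysophospholipids bearing omega-3 fatty acids). They were listed by name for these known roles, without a measured value in the rule, though earlier results of these data were known. They made up 10 of the 18634 genes in the deposited table. The barrier works by both exclusion and supply: claudins and occludin close the paracellular route, ATP-driven pumps return drugs and lipophilic compounds to blood, and solute carriers admit sugars, amino acids, hormones and lipids. In regions where hormones must pass freely, such as the median eminence and pituitary, capillaries are fenestrated, carry the diaphragm protein PLVAP and lack a tight barrier.

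The study profiled single cells from brainstem, cortex and hypothalamus of wild-type male C57BL/6 J mice aged 9 to 11 weeks, under normal sleep (NS), after 12 h of sleep deprivation (SD) by a sweeping bar, or after deprivation and recovery sleep (RS). Tissue of 3 mice was pooled into 1 suspension for each region and sleep group, all collected at ZT12, the end of the light phase, so each group is 1 library with no replicate. The recovery period is 12 h in one sentence of the labels and 24 h in another and in the study's methods. The table held 29571 cells under 9 library codes, numbered here 1 to 9 by first appearance. The codes do not name the samples. The cell-type list that the study supplied for brainstem NS shared 1999 barcodes with library 7 and 5 to 13 with each of the other libraries, so library 7 is read as brainstem NS. The other 8 libraries stay without a group, and no sleep groups or regions were compared.

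Endothelial cells were selected in every library by Flt1 (a VEGF receptor) and Ly6c1 (a surface antigen of brain endothelium), neither of which is a member: a cell with 1 or more UMIs of the pair was called gated. The gate held 6080 cells, from 137 in library 6 to 1518 in library 7, or 3.50% to 40.7% of a library. Median depth was 448 to 1119 UMIs in gated cells and 396 to 1053 in the others. Levels are CPM (UMI counts summed over cells and scaled to a common total), with exact 95% Poisson intervals in brackets. Shares are cells with at least 1 UMI, with exact Clopper-Pearson intervals. Both intervals cover counting error only, and say nothing of how animals or libraries vary. The counts are of transcripts without a length scale, so levels are compared between cells and not between genes. Of the 29571 cells, 1105 carried a barcode that also occurs in another library, 235 of them gated.

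The gate was a mixture. Among 833 gated cells of library 7 that the list names, 558 were Endothelial (67.0%), 95 Microglia, 36 arterial smooth muscle (VSMCA), 35 Astrocyte and 24 Pericyte. In the other direction it took 558 of 573 listed Endothelial cells (97.4%) but 17.3% of Microglia. A list of 7 pituitary genes stood at 118168 to 210950 CPM in the gated cells of libraries 4, 5 and 6 and at 26.6 to 168 CPM in those of the other libraries, and 4 choroid plexus genes reached 43154 CPM in library 9. The part of these other cells and of free RNA in the differences between libraries was not tested.

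Promoter windows, 250 bases upstream to 50 downstream of a start site, were taken from RefSeq on GRCm38.p6 for 9 of the 10 members. Slc7a5, at chr8:121881146-121907686, was not matched. The windows of 4 members are shown because they cover the patterns described further on: Slco1a4 and Cldn5 had the highest ratios of gated to other cells, Abcb1a was also found in a set of cells outside the gate, and Mfsd2a departed from the rest. Capitals mark AGGAA or its reverse complement TTCCT, the core recognised by ETS factors such as Erg. The Slco1a4 window is chr6:141856171-141856470 on the minus strand, Cldn5 is chr16:18776597-18776896 on the plus strand, Abcb1a is chr5:8566841-8567140 on the plus strand, and Mfsd2a is chr4:122961139-122961438 on the minus strand.
Slco1a4: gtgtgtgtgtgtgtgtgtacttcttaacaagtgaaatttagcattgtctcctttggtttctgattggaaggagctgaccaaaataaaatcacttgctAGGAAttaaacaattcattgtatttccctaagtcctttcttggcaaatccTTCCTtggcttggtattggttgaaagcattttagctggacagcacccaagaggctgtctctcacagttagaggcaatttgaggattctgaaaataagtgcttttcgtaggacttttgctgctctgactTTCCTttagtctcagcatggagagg
Cldn5: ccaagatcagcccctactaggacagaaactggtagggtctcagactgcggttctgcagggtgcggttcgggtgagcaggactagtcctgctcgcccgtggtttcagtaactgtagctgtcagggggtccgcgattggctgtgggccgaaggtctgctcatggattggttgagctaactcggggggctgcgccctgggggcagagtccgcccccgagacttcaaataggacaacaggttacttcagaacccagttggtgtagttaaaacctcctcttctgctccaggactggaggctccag
Abcb1a: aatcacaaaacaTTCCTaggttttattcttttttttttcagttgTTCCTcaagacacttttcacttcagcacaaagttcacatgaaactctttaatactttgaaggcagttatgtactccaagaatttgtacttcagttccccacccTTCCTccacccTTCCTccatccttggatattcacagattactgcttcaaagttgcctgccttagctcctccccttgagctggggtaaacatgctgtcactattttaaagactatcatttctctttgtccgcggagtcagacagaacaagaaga
Mfsd2a: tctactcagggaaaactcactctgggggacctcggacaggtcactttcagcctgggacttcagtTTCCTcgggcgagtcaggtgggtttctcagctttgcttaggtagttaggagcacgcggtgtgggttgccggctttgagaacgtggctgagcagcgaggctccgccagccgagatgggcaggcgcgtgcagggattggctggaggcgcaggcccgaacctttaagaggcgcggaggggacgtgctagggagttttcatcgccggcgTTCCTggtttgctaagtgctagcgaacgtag

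The ETS letters occurred in 6 of the 9 windows (Slco1a4, Slco1c1, Abcb1a, Abcg2, Ocln, Mfsd2a) and in 66.8% of 27025 promoters of this length. They numbered 3 in Slco1a4, 4 in Abcb1a and 2 in Mfsd2a, and Cldn5 had none in this window. On either strand, CCAAT was found in 6 windows (38.0% of all promoters), ACAAT of SOX factors in 2 (31.5%), CTTTGA of TCF/LEF factors in 2, Abcb1a and Mfsd2a (16.2%), and TATAAA in 3 (14.2%). A match describes the letters only. GC content split the members, from 40.3% in Abcb1a and 40.7% in Slco1a4 to 65.0% in Slc7a1 and 65.3% in Slc2a1, against a median of 52.7% over all promoters.

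All 10 members were found in the gated cells of every library, and 9 of the 10 were concentrated there. Summed over libraries, 9 members were at least 2 times as high in gated as in other cells, by the ratio of CPM + 10. The background is 664 of 10266 genes, or 6.47%. The median ratio was 10.8 over the members and 1.00 over all genes tested. Slco1a4 had the highest ratio of all genes tested (39.3, the gate genes left out), and Cldn5 the next (28.2). This order rests on the summed libraries: the median ratio over libraries was 34.3 for Slco1a4 and 37.9 for Cldn5. Mfsd2a, at 1.83, was the exception. It passed the 2 times rule with some other settings, at 2.30 with a gate of 2 or more UMIs and 2.70 in cells of 1000 or more UMIs. At least 1 member UMI was found in 51.1% to 86.8% of gated cells of a library. The share was 3.37% to 29.5% in cells outside the gate defined by microglial markers (at least 3 UMIs of 5 genes, more than of any other marker list). These microglia-marker cells are a reference class, and whether they express some members themselves was not tested. Their median depth was 311 to 1021 UMIs, beside 448 to 1119 UMIs in gated cells.

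Of the uptake carriers, Slco1a4, which moves bile salts and other organic anions across the capillary wall, ranged from 276 CPM (212 to 353) in library 6 through a median of 1374 to 1806 CPM (1747 to 1866) in library 7. Its level in the other cells was 3.04 to 86.9 CPM, and the gated-to-other ratio was 12.7 to 82.5. A UMI was found in 23.4% to 63.3% of gated cells and in at most 5.94% of microglia-marker cells. With every cell thinned to 500 UMIs the ranges became 17.5% to 50.7% and at most 3.56%. Thinning kept only cells of that depth, which were 83 of 198 gated cells in library 1, 219 of 511 in library 2, 137 of 279 in library 5, 218 of 254 in library 4, 1164 of 1282 in library 8, 1511 of 1518 in library 7 and every gated cell of libraries 3, 6 and 9, with 13 to 808 microglia-marker cells. In order of level, libraries 7, 8, 2, 5 and 3 each overlapped the next by their intervals, as did libraries 9 and 1 (1219 and 1170 CPM), while libraries 4 (661 CPM) and 6 lay apart below.

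Slco1c1, the thyroxine carrier, was low in libraries 4 and 6 (113 and 26.3 CPM) and reached 413 CPM (344 to 493) in library 2. It differed from Slco1a4 outside the gate: the other cells held 84.7 to 116 CPM in libraries 1 to 3 and 1.52 to 25.8 CPM in libraries 4 to 9. The ratio was 3.35 to 4.23 in libraries 1 to 3 and 3.15 to 16.2 elsewhere.

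Slc2a1, which carries glucose into the brain, spanned a wide range. It was at 149 CPM (103 to 208) in library 6, 564 CPM in library 9, a median of 998, and 1763 CPM (1616 to 1920) in library 2. It was in 15.3% to 61.0% of gated cells. Unlike Slco1a4, its highest levels were in libraries 2, 1 and 3, with libraries 7 and 8 in the middle at 994 and 998 CPM.

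The amino acid carriers followed different library orders. Slc7a1, which carries arginine and lysine, was highest in library 7 (403 CPM, 375 to 432) and 8 (331 CPM), and lowest in libraries 4, 5 and 6 (158, 132 and 56.9 CPM), whose intervals overlap from one to the next. Slc7a5, the large neutral carrier LAT1 that also transports L-DOPA, was highest in library 1 (545 CPM, 423 to 691) and lowest in library 6 (30.6 CPM, 12.3 to 63.1). For Slc7a5 all neighbours in the order but the last pair, libraries 4 and 6, overlapped.

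The efflux pumps were both concentrated in gated cells. Abcb1a, encoding P-glycoprotein, ran from 153 CPM (107 to 213) in library 6 through 496 to 705 CPM (566 to 869) in library 1, with a ratio of 10.6 to 37.1. It was in 13.9% to 41.9% of gated cells and at most 1.96% of microglia-marker cells. Its paralog Abcb1b was at 5.86 CPM in gated and 5.23 CPM in other cells, although reads from 2 such similar genes can be assigned to the wrong copy and the counting of shared reads is not given in the sources used here. The same caution holds for Slco1a4 among the Slco1a genes. Abcg2, the breast cancer resistance protein, ran from 201 CPM (147 to 269) in library 6 to 823 CPM (784 to 864) in library 7, with library 4 at 514 CPM near the middle.

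Both junction genes were higher in gated cells in every library. Cldn5, the claudin that forms the paracellular seal, was at 276 CPM (212 to 353) in library 6, a median of 888, and 1689 CPM (1546 to 1843) in library 2. Libraries 1, 2, 3 and 5 were at 1260 to 1689 CPM and libraries 7, 8 and 9 at 573 to 888 CPM, with no overlap of these levels, and library 4 was at 736 CPM. Ocln, occludin, was at 48.1 CPM (24.0 to 86.2) in library 6, a median of 129 and 190 CPM (133 to 263) in library 5, where each library's interval overlapped its neighbour's all the way down the order. Outside the gate Ocln was at 2.86 to 3.06 CPM in libraries 1 to 3 and at 16.9 to 43.6 CPM in libraries 4 to 9.

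Mfsd2a stood apart. It was the lowest of its own range in library 6 (17.5 CPM, 4.77 to 44.8) and the highest in library 2 (130 CPM, 92.4 to 178), like several members, but its other cells were as rich as its gated cells in 2 libraries. Those were library 2, with 130 against 131 CPM, and library 8, with 69.0 against 73.1 CPM. It reached a ratio of 2 in 5 of 9 libraries, where the other 9 members did so in 9 of 9.

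**Figure D1:**
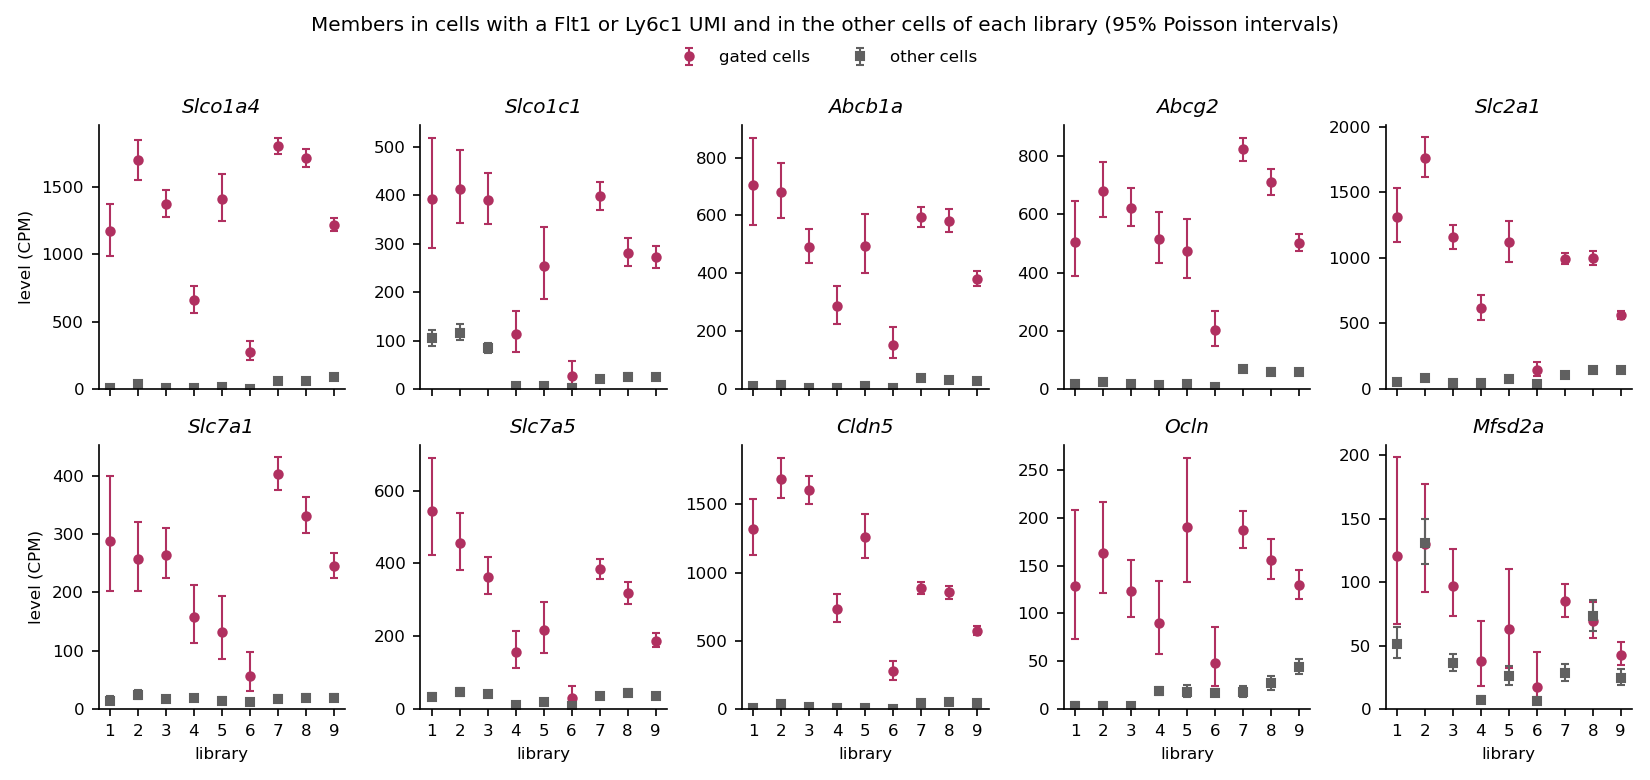
Level of each member in CPM (vertical axis, one scale per gene) in gated cells (circles) and other cells (squares) of libraries 1 to 9; bars are 95% Poisson intervals. Circles lie above squares in every library for 9 members, whereas for Mfsd2a the symbols meet in libraries 2 and 8, and library 6 is lowest for all 10.

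Library 6 was the lowest in all 10 members. Summed, the members were at 1234 CPM in library 6, 3367 in library 4, 4118 in library 9 and 5615 to 7927 in the other 6. Since the gate admits other cells, the members were also set against the UMIs of 9 endothelial genes (Pecam1, Cdh5, Tek, Egfl7, Esam, Ptprb, Emcn, Kdr and Eng) in the same cells, an alternative chosen after seeing the data. By this measure the members gave 268 to 360 UMIs per 100 endothelial UMIs in 7 libraries, and 132 in library 4 and 112 in library 6. Libraries 4 and 6 were the lowest pair for each of the 10 members. Slco1a4 gave 25.9 and 25.1 in libraries 4 and 6 and 64.9 to 87.8 in the others. Cldn5 gave 28.8 and 25.1 there, and 37.3 to 76.8 elsewhere. Abcg2 moved less, with 20.1 and 18.3 against 24.1 to 38.1. In library 4 the low value lay in the 83 gated cells with a UMI of Plvap, a gene of fenestrated vessels, which held 442 endothelial UMIs and gave 26.9. Its 171 other gated cells held 238 endothelial UMIs and gave 327, within the range of the 7 libraries, with Slco1a4 at 71.0, Slc2a1 at 64.7 and Cldn5 at 75.6. The 112 gated cells of library 6 with no Plvap UMI gave 196, still below that range. Library 9, low in CPM, was at 268 and close to library 5, at 285. The median over libraries of the summed level, 6014 CPM, moved to 3436 CPM in cells of 1000 or more UMIs and to 9479 CPM in cells with a UMI of each gate gene.

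**Figure D2:**
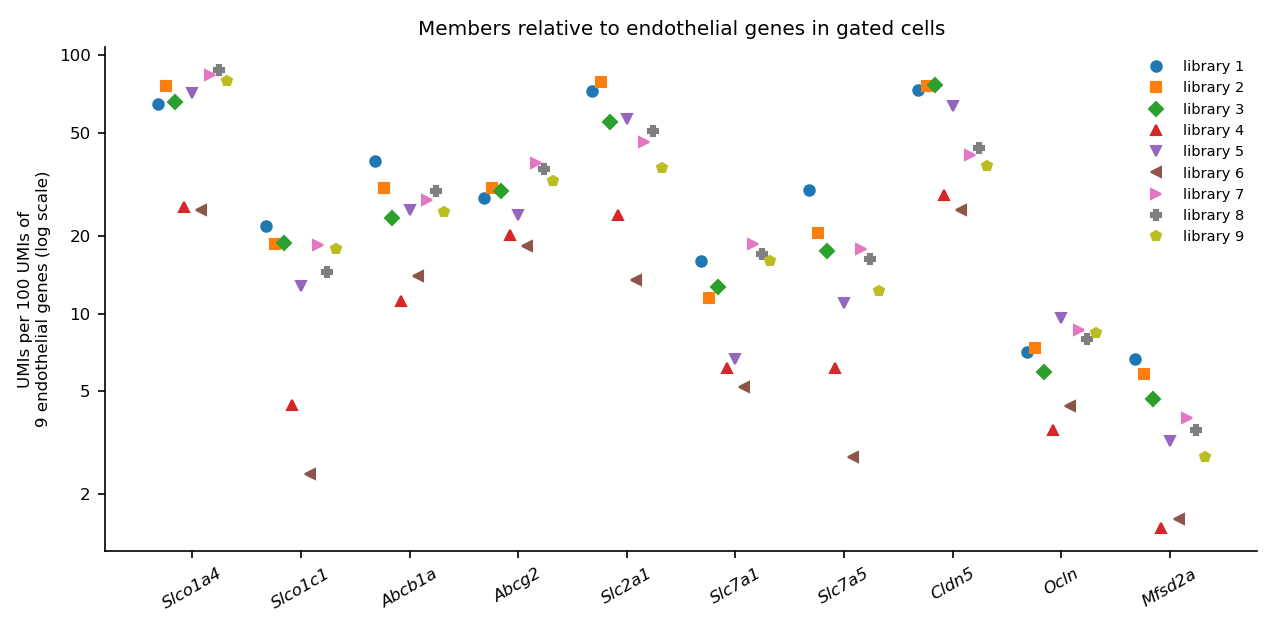
UMIs of each member (horizontal axis) per 100 UMIs of 9 endothelial genes in gated cells, on a log scale, one symbol per library. The symbols of libraries 4 and 6 are the bottom pair for all 10 members, and the summed members are at 132 and 112 against 268 to 360. Without the cells that hold a Plvap UMI the sums of libraries 4 and 6 are 327 and 196.

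These 2 libraries were also those with the most Plvap. Plvap UMIs were found in 83 of 254 gated cells of library 4 (32.7%, 26.9% to 38.8%) and in 25 of 137 of library 6 (18.2%), against 0.156% to 4.30% in the others. Library, region and sleep group cannot be told apart here, since each library is 1 region in 1 group.

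Within library 4, gated cells with a Plvap UMI held few transcripts of most barrier genes. Slco1a4 was at 89.8 CPM (36.1 to 185) in the 83 Plvap cells and 897 CPM (767 to 1043) in the 171 others. Slc2a1 was at 128 against 817 CPM, Cldn5 at 205 against 955 CPM and Abcb1a at 89.8 against 366 CPM, with intervals apart in each case. Slco1c1 was 1 UMI against 154 CPM. Ocln had no UMI in Plvap cells and 127 CPM in the others, at least 3.31-fold lower by a floor of 3 counts over the Plvap cells. Slc7a1 (115 against 175 CPM), Slc7a5 (76.9 against 191 CPM) and Mfsd2a (no UMI against 53.1 CPM) had overlapping intervals, so no difference was shown for these 3 at this depth.

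In all, 6 of the 10 members were at least 2 times lower in Plvap cells with intervals apart, beside a background of 1.05% of 11129 genes tested, and 1 was at least 2 times higher, beside 2.35%. By the ratio of CPM + 10 alone the count lower was 8, with Slc7a5 and Mfsd2a added, beside 26.3% of all genes, and 17.5% were higher. The 9 endothelial genes were not lower in Plvap cells, at 5668 CPM against 1263 CPM. The gate gene Ly6c1 was lower, at 1193 CPM (963 to 1461) against 2781 CPM (2548 to 3029). In cells of 1000 or more UMIs its intervals overlapped, at 832 against 1295 CPM. Flt1 was at 885 against 621 CPM, with overlapping intervals. The pituitary list was lower in the Plvap cells, at 44046 against 148844 CPM, and median depth was 812 against 765 UMIs.

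The split was planned for libraries with many gated Plvap cells, here library 4 alone, and for all libraries summed. In that sum every member was lower in Plvap cells with intervals apart, such as Slc7a1 (69.3 against 302 CPM) and Slc7a5 (79.9 against 299 CPM). Most cells without Plvap there come from other libraries, and the share over all genes is not given. Libraries 5 and 6 were added and taken 1 at a time, since their levels and Plvap shares differ. In library 5, with 12 Plvap cells and 267 others, Slco1a4 (1465 CPM in the others), Slc2a1 (1159 CPM) and Cldn5 (1306 CPM) had no UMI in Plvap cells and were at least 3.26-, 2.58- and 2.91-fold lower. These were the 3 members lower with intervals apart, beside 0.198% of 9620 genes, and 0 were higher, beside 1.1%. By the ratio alone 9 were lower, beside 72.5% of all genes, and 0 higher, beside 18.1%. In library 6, with 25 Plvap cells and 112 others, 0 members were lower with intervals apart, beside 0.598% of 8528 genes. Slco1a4 was at 77.3 CPM on 2 UMIs against 301 CPM, and Cldn5 at 309 (134 to 610) against 271 CPM (205 to 353). Abcg2 was the 1 member higher with intervals apart there, at 503 against 163 CPM, beside 2.47%. By the ratio alone 5 were lower, beside 41.4%, and 1 higher, beside 23.8%. Ly6c1 was lower in Plvap cells of library 5 (2247 against 4470 CPM, intervals apart), and its intervals overlapped in library 6 (1160 against 1037 CPM). The pituitary list was lower in Plvap cells of both, at 9136 against 144572 CPM in library 5 and 72194 against 228661 CPM in library 6. The pericyte list was higher in those of library 6, at 1005 against 114 CPM. The part of these cells in the result was not tested.

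When library 4 was held to cells of 1000 or more UMIs, 28 Plvap cells and 56 others were left and 9 members were tested. The pericyte list was at 416 CPM in the Plvap cells and 95.6 CPM in the others, against 346 and 329 CPM at all depths, and the pituitary list at 73707 and 210675 CPM. Slco1a4 (97.9 against 469 CPM) and Slc2a1 (97.9 against 539 CPM) were lower with intervals apart, beside 0.63% of 9523 genes. Abcg2 was higher with intervals apart (979 against 226 CPM), beside 2.04%. By the ratio alone 6 members were lower, beside 30.1%, and 2 were higher, beside 24.4%. Cldn5 had overlapping intervals there, at 342 against 356 CPM with a ratio of 0.96, and Slc7a5 turned to 2.02 on 4 and 5 UMIs, also with overlapping intervals.

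Abcg2 was the member on the other side. It was at 808 CPM (621 to 1034) in the Plvap cells of library 4 and 393 CPM (308 to 493) in the others, 2.06 times as high, and in 47.0% against 29.2% of cells. The size of this difference varied with the cells used: the ratio of CPM + 10, 2.03, was 1.25 with a gate of 2 or more UMIs, 1.82 with totals free of mitochondrial, hemoglobin and hormone genes, and 4.19 in cells of 1000 or more UMIs. The direction depends on the denominator. Per 100 endothelial UMIs Abcg2 was at 14.3 in Plvap cells and 31.1 in the others, lower like every other member, while Slco1a4 was at 1.58 against 71.0. The ratios of these values were 0.46 for Abcg2 and 0.022 for Slco1a4. Abcg2 was likewise at 20.5 against 36.6 in cells of 1000 or more UMIs of library 4, and at 10.7 against 25.4 in library 6. In library 5 Abcg2 was at 2 UMIs in Plvap cells with overlapping intervals, in library 6 it was at 503 against 163 CPM, and summed over all libraries, where most cells without Plvap come from other libraries, 480 and 643 CPM.

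**Figure D3:**
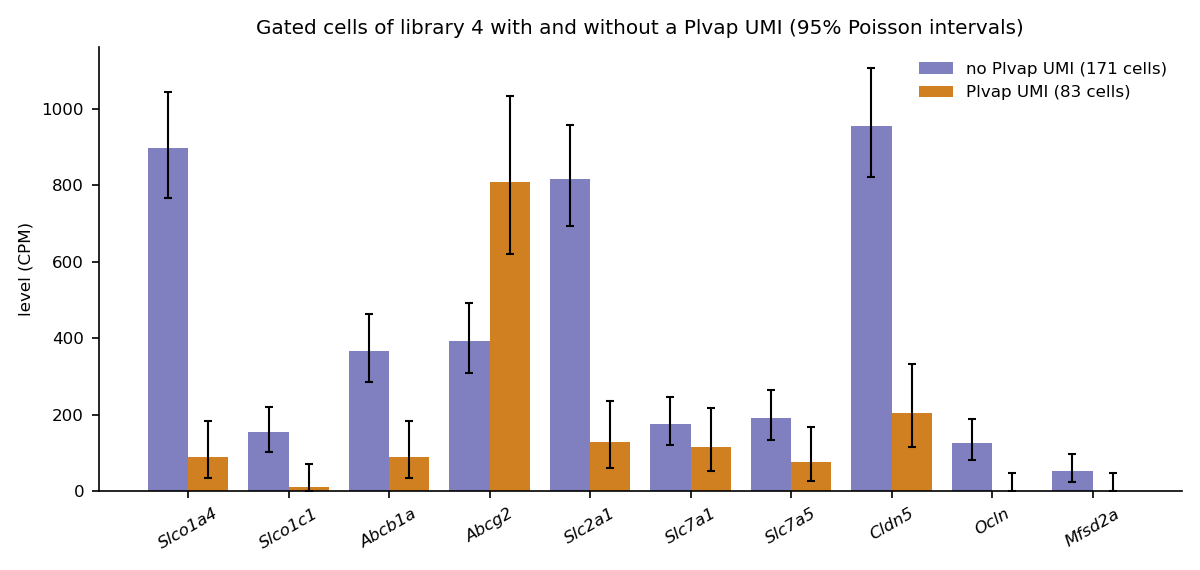
Level of each member in CPM in gated cells of library 4 without (left bars, 171 cells) and with (right bars, 83 cells) a Plvap UMI; bars carry 95% Poisson intervals and start at 0. The right bar is shorter for 9 members and taller for Abcg2, at 808 against 393 CPM.

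Cell types could be named in library 7 from the study's list, which was held only in part (1999 cells). Its clustering was done on principal components that members may have entered, so the levels by type are a description. Markers fitted the Endothelial label by level: the 9 endothelial genes were at 3460 CPM. They were at 1160 CPM in the list's hemoglobin-rich vascular cells, 777 CPM in Pericyte and 406 CPM in Microglia. All 9 were found in Microglia too, so finding them does not mark the type. The pericyte list was at 1368 CPM in Endothelial cells, in 31.2% of them, against 13466 CPM in Pericyte. All 10 members were at least 2 times as high in the 573 Endothelial cells as in the 1426 other listed cells, beside a background of 10.2% of 9828 genes. Endothelial cells carried a median of 5 different members, 63.7% carried 5 or more, and 1 of 573 carried none. Microglia, at a median depth of 796 UMIs against 910, carried a median of 0 members, and 75.8% had none. Thinned to 500 UMIs, the medians were 3 and 0.

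For 9 members the Endothelial level was the highest of 11 types. Slco1a4 was at 2999 CPM (2867 to 3136), in 89.2% of Endothelial cells and 4.19% of Microglia. Cldn5 was at 1605 CPM in 72.4%, Slc2a1 at 1619 CPM in 75.0%, Abcg2 at 1354 CPM in 66.8% and Abcb1a at 953 CPM in 57.9%. Slc7a1 (663 CPM), Slco1c1 (657 CPM), Slc7a5 (594 CPM) and Ocln (299 CPM) were found in 33.3%, 45.5%, 42.1% and 26.9% of these cells.

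Next in order, for 6 members, came the hemoglobin-rich vascular cells (HbVC) of the list. Except for Slco1a4, the HbVC interval overlapped that of a type below it, so this second place is not settled by the counts. Slco1c1 rested on 4 UMIs in HbVC, and Slc7a1 and Cldn5 on 6 UMIs each. Slc7a1 was at 136 CPM there and 133 CPM in Neuron Glutamatergic. These 19 cells held Slco1a4 at 773 CPM (536 to 1081) and Slc2a1 at 546 CPM (350 to 812). Slc7a5 was at 364 CPM (208 to 591), the only one of these 6 whose interval there overlapped that of Endothelial cells. The 5 erythroid list genes took 690447 CPM in these cells, which lowers the CPM of every other gene, and the 9 endothelial genes were at 1160 CPM.

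**Figure D4:**
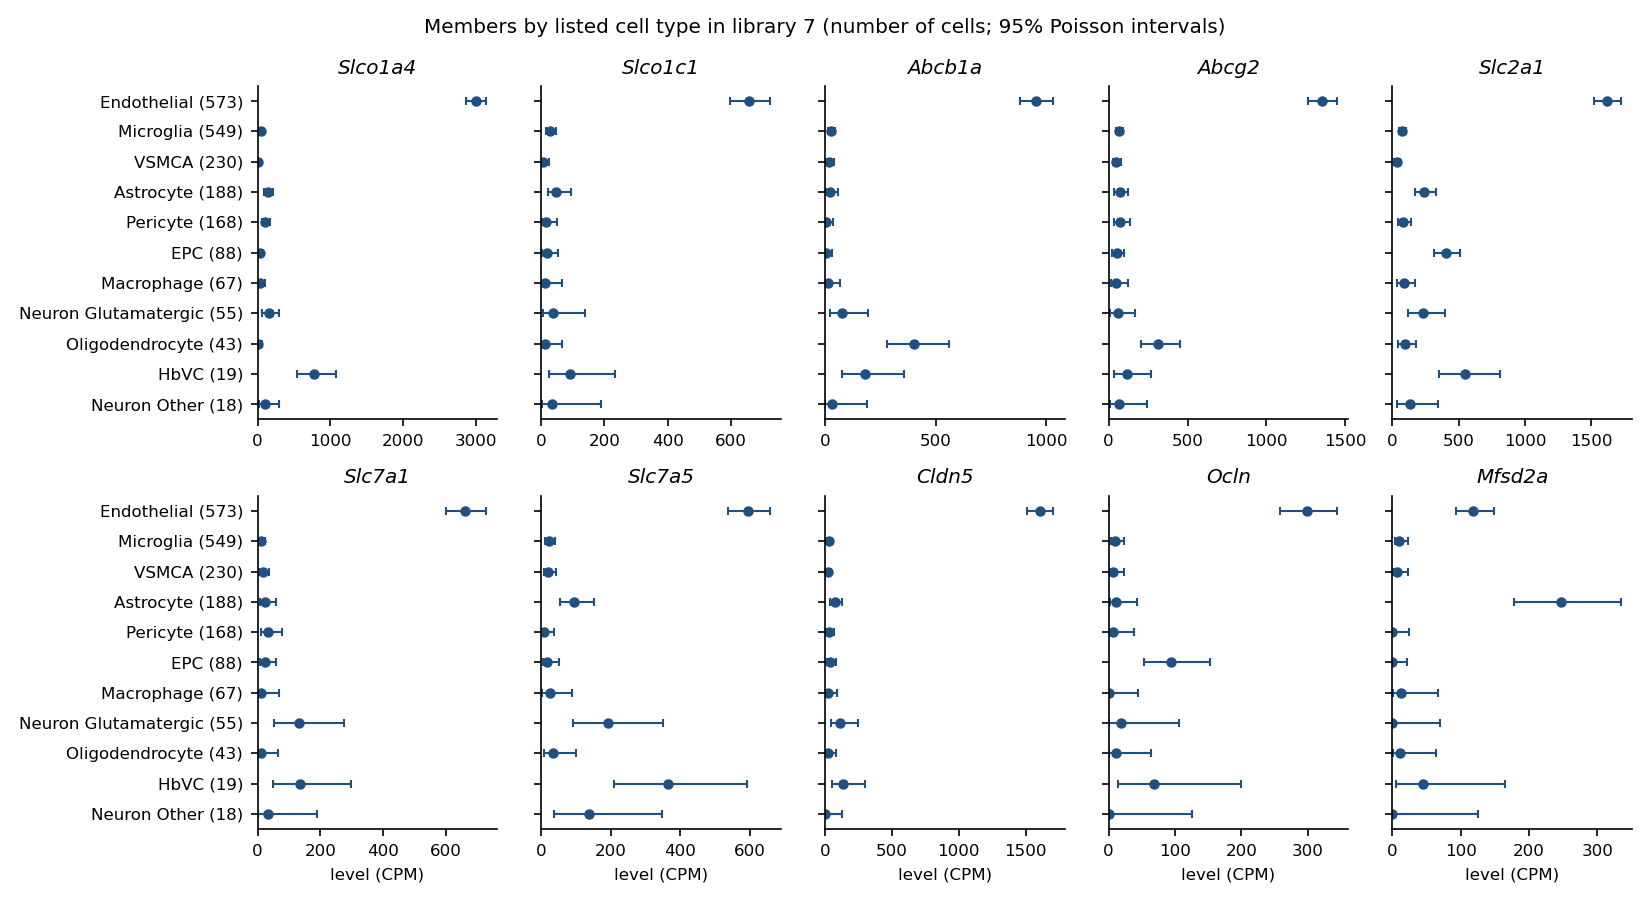
Level of each member in CPM (horizontal axes, one scale per gene) in the 11 listed cell types of library 7, with the number of cells in brackets and 95% Poisson intervals. The Endothelial point is farthest right in 9 panels; Astrocyte leads for Mfsd2a, and the Oligodendrocyte label comes next for Abcb1a and Abcg2.

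Mfsd2a was highest in Astrocyte, at 247 CPM (178 to 334) against 119 CPM (93.7 to 148) in Endothelial cells, and in 19.1% against 11.3% of cells. Thinned shares were 15.1% and 5.96%, and Microglia had 0.911%. The same was looked for in every library with cells outside the gate that carry at least 3 UMIs of 5 astrocyte genes (Aldoc, Aqp4, Slc1a3, Slc1a2, Gja1), and more than of any other list, a check chosen after seeing the data. Mfsd2a in these cells ranged from 18.7 CPM in library 4 through 136 to 389 CPM (321 to 469) in library 8. It was above the interval of microglia-marker cells in 6 of 8 libraries and above that of gated cells in 4.

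Slco1c1 in astrocyte-marker cells split the libraries. It was at 276, 314 and 332 CPM in libraries 1, 2 and 3, and at 0 to 66.1 CPM in libraries 4 to 9. In the first 3 these levels overlapped those of the gated cells (393, 413 and 390 CPM). Library 6, with 180 such cells, had no UMI, with a Poisson interval up to 9.31 CPM. Slc2a1 in the listed Astrocyte cells was at 241 CPM (173 to 327), in 19.1% of them, against 72.9 CPM (51.4 to 101) in Microglia. In astrocyte-marker cells it was at 27.8 to 306 CPM, above microglia-marker cells in 4 of 8 libraries and above gated cells in 0. Slc7a5 was at 191 CPM (91.4 to 351) in listed Neuron Glutamatergic cells, on 10 UMIs, against 21.7 CPM (10.8 to 38.8) in Microglia. By neuron markers, Slc7a5 and Slc7a1 were above the interval of microglia-marker cells in 0 of 8 libraries.

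Slc2a1 and Ocln were also found in ependymal cells, the ciliated lining of the ventricles. In the 88 cells listed as EPC (ependymocytes) of library 7, where 4 ependymal genes stood at 8333 CPM, Slc2a1 was at 405 CPM (315 to 512) in 39.8% of cells and Ocln at 93.9 CPM (53.7 to 152) in 18.2%. Cldn5 (41.1 CPM) and Slco1a4 (35.2 CPM) were at levels that overlapped Microglia. Median depth was 1752 UMIs in EPC and 796 in Microglia. Thinned to 500 UMIs, Slc2a1 was in 15.9% of EPC and 4.06% of Microglia. Ocln was then in 5.68% and 0.738%, with overlapping intervals. By ependymal markers, 6 libraries had such cells: Slc2a1 was at 290 to 505 CPM, above microglia-marker cells in 5 of 5 libraries where both exist, and Ocln at 78.3 to 136 CPM, above them in 4 of 5. In library 6 ependymal-marker cells exceeded the gated cells for both genes, 341 against 149 CPM and 123 against 48.1 CPM.

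**Figure D5:**
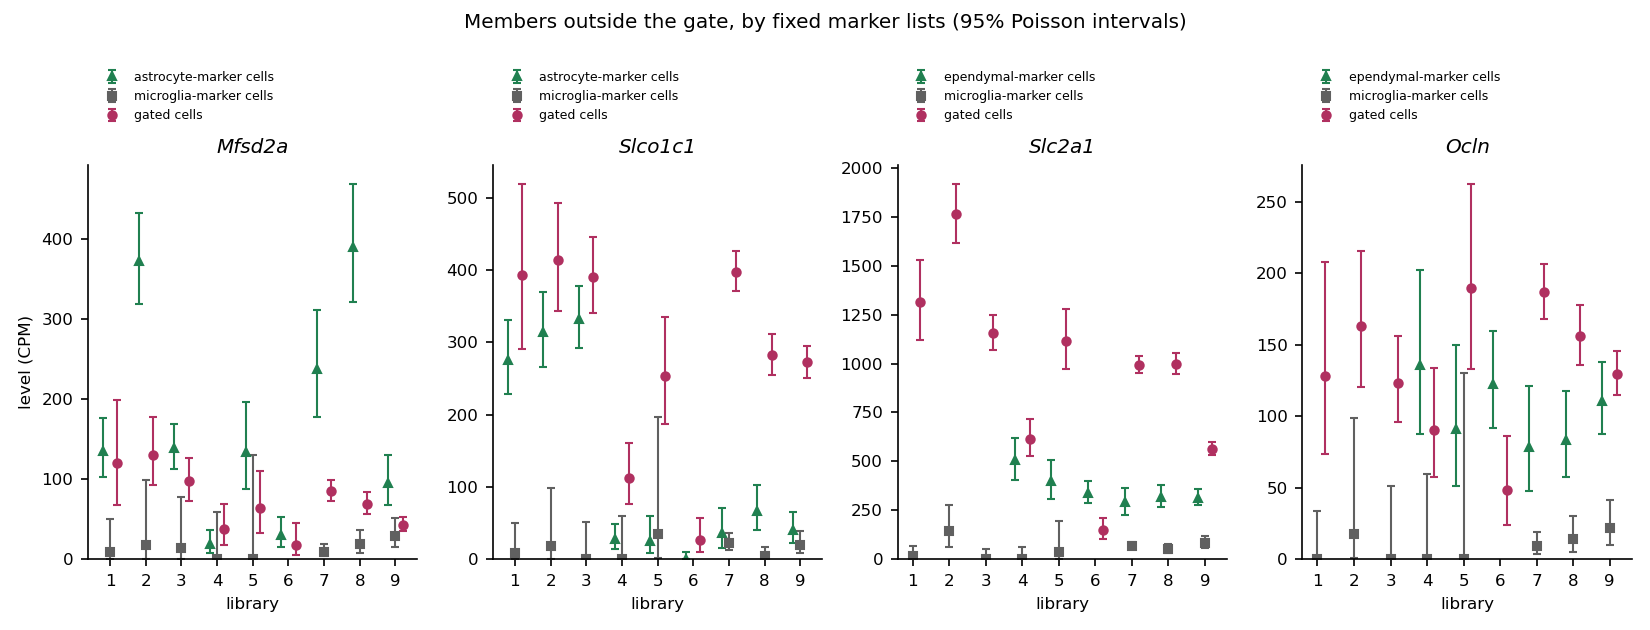
Levels in CPM by library of Mfsd2a and Slco1c1 in astrocyte-marker cells (triangles) and of Slc2a1 and Ocln in ependymal-marker cells (triangles), beside microglia-marker (squares) and gated cells (circles), with 95% Poisson intervals. Triangles lie above circles with intervals apart for Mfsd2a in libraries 2, 7, 8 and 9, and lie near circles for Slco1c1 in libraries 1 to 3.

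The efflux pumps were found outside endothelium in a different set of cells. The 43 cells listed as Oligodendrocyte in library 7 held Abcb1a at 404 CPM (281 to 562) in 44.2% of cells and Abcg2 at 312 CPM (205 to 453) in 30.2%. Of these 43 cells, 10 were gated. Their median depth was 1651 UMIs over all 43, against 796 in Microglia. Thinned to 500 UMIs, Abcb1a was in 9.52% of them and 0.738% of Microglia. Abcg2 was then in 7.14% and 4.43%, with overlapping intervals. Among members, 2 of 10 were at least 2 times as high in the Oligodendrocyte label as in the listed cells other than Endothelial, beside a background of 11.1% of 10588 genes. Abcb1a had a ratio of 11.6 and Abcg2 of 4.42, while Slco1a4 (1 UMI), Slco1c1 (1 UMI) and Cldn5 (2 UMIs) had intervals that overlapped those of Microglia. The data went against the label. Myelin genes were nearly absent, with 1 UMI of Mbp and none of Mag or Mobp, and the leading genes were Prg4, Dapl1, Nov, Cldn11, Fn1 and Igfbp6, with Cldn11 at 63 UMIs. The cells are given no other name here.

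Cldn11 alone, at 2 or more UMIs and outside the gate, picked out 33 cells in the other 8 libraries, a check chosen after seeing the data. Abcb1a was at 456 CPM (295 to 673), in 11 of 33 cells, against 9.09 CPM in the remaining cells outside the gate. Abcg2 was at 310 CPM (181 to 496) against 21.4 CPM. In libraries 2, 3 and 8, with 6 or 7 such cells each, the Abcb1a interval lay above that of the remaining cells, and the Abcg2 interval did so in libraries 2 and 8. The counts were small. Library 2 had 2 UMIs of each gene, those of Abcg2 in 1 cell. Abcb1a had 4 UMIs in library 3 and 8 in library 8, and Abcg2 had 0 and 7. Slco1a4 had no UMI in the 33 cells, an interval up to 67.3 CPM, so a difference from the 23.8 CPM of the remaining cells was not detectable at this depth. Cldn5 had 1 UMI, and Pecam1 and Mbp had none, while Prg4 was at 1586 CPM and Cdh5 at 91.2 CPM.

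Between gated cells with arterial and with venous genes the members differed by less than a factor of 2. UMIs of 5 arterial and 5 venous genes split the gated cells into 847 with arterial genes alone, 940 with venous genes alone, 3960 with neither and 333 with both, called arterial and venous cells here for short. The venous genes do not mark endothelium by themselves: in library 7 they were at 777 CPM in Pericyte, in 36.9% of cells, against 356 CPM in Endothelial cells, in 17.5%, and were in 29.1% of the cells listed as VSMCA. The arterial genes were at 902 CPM in Endothelial cells and 33.8 CPM in Pericyte. Slc7a1 was at 218 CPM (191 to 247) in arterial and 373 CPM (342 to 405) in venous cells, and Abcg2 at 557 against 726 CPM. Slc2a1 was higher in arterial cells, 1099 against 848 CPM, as was Slco1c1, 367 against 297 CPM. Slco1a4 was 0.88 times as high in arterial cells. Abcb1a, Slc7a5, Cldn5, Ocln and Mfsd2a had overlapping intervals. The share of all genes with separate intervals in this split was not computed, so the members cannot be set against it. Median depth was 944 UMIs in arterial and 1124 UMIs in venous cells. With a gate of 2 or more UMIs Slc7a5 had separate intervals, at a ratio of 0.72, and Slco1c1 no longer had them, at 1.13.

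In the listed Endothelial cells of library 7 only the Abcg2 difference still had separate intervals, at 1051 CPM (882 to 1243) in 104 arterial and 1577 CPM (1359 to 1820) in 70 venous cells. Slc7a1 there was 690.5 against 742 CPM. Over all libraries, smooth muscle genes, which should be absent from endothelium, stood at 746 CPM in arterial and 1494 CPM in venous gated cells. The pericyte list was at 1189 and 1562 CPM. In the listed Endothelial cells smooth muscle genes were at 430 CPM in arterial and 270 CPM in venous cells. The pericyte list was at 1350 and 1113 CPM there, and both pairs of intervals overlapped. The part of these lists in the differences was not tested.

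Other genes of the barrier, from 4 lists, were described the same way. Of 25 further transporters and receptors, 23 were tested and 14 were at least 2 times as high in gated cells over all libraries (list median ratio 2.86, all genes 1.00). The highest were Slc38a5 (glutamine, 8.13), Slc16a4 (a monocarboxylate family member, 7.64) and Slc6a6 (taurine, 7.40), while Slc27a1, a fatty acid transporter, was at 0.52. Of 20 junction genes, 14 were tested and 7 passed, with a median of 1.97. VE-cadherin Cdh5 (9.95), Pecam1 (8.02) and Esam (7.37) led, and Cldn12 (0.87), Jam3 (0.85) and Cldn3 (0.53) lay below 1.

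Regulators of the barrier gave 14 of 17 tested, of 18 listed, with a median of 2.94 and none below 1. Sox17, a vascular transcription factor, had a ratio of 16.3, Foxq1 of 12.0 and Lef1, the effector of Wnt signalling, of 9.85. Of 8 genes tied to fenestrated or leaky vessels, 4 were tested and 3 passed: the caveolins Cav1 (6.51) and Cav2 (5.52), and Plvap (2.68). Without library 4, a check chosen after seeing the data, the Plvap ratio was 1.41, below the 2 times rule. Plpp3 was at 0.53. These shares stand beside the 6.47% of all genes tested.

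Over the 18 pools made by the gated and the other cells of 9 libraries, each member was matched to the genes of most similar log2(CPM + 10). The pools share libraries, depth and cell mixture, so the coefficients describe mainly the contrast of gated and other cells. The 2910 candidates left out the members themselves. Among them, Slco1a4 was most like Adgrf5 and Pglyrp1 (r = 0.99 each). Abcg2 was most like Adgrf5 and Itm2a, Abcb1a like Paqr5 and Acvrl1, and Cldn5 like Acvrl1 and Kank3 (all 0.99). Slc2a1 was most like Tbc1d4 and Wfdc1, and Slc7a1 like Lef1 and Ptprr (all 0.99). Slco1c1 was most like the transferrin receptor Tfrc (0.98) and Gclm (0.97), Slc7a5 like Prom1 and Myl12b (0.98 each), and Ocln like Cd59a and Golim4 (0.97 each). Mfsd2a alone matched no gene as closely: its nearest were Glul, the glutamine synthetase of astrocytes, at 0.89, and Ak3 at 0.86. Between members, Mfsd2a had r of 0.40 with Ocln to 0.83 with Slco1c1, while the 4 genes Slco1a4, Abcb1a, Abcg2 and Cldn5 had 0.98 or 0.99 with each other.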

How the data were processed

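Single cells were captured with the 10x Genomics Chromium version 2 chemistry after papain dissociation and myelin removal. The authors mapped reads with Cell Ranger 2.2.0 to GRCm38, as the submitters' processing notes give it, and deposited raw UMI counts of 18634 genes in 29571 cells. The annotation release and doublet treatment are not given in the sources used here, and no doublet caller was run. Columns of per-sample values left unused numbered 0.

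The members and gene lists were chosen with earlier results of these data known. Counts were summed over cells and given as CPM of all UMIs. Ratios used CPM + 10, over genes at 10 CPM or more in either pool. Named genes were the members, gate genes, Plvap, the top 3 of each barrier list with those below 1, and the 2 most similar genes of each member. Not every gene this rule names is reported here. Marker classes needed 3 UMIs. With 1 library per group no test was run. Cells were thinned to 500 UMIs with a fixed seed. The fold rule and the Poisson interval code were tested on simulated data, and the thinning was not. Python 3.11.15, numpy 2.4.6, scipy 1.17.1 and pandas 2.3.3 were used. Alternatives covered gate, depth, totals, averaging, pseudocount and fold.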

Additional observations from a re-analysis of the deposited data

How the results depend on the processing

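No paired analysis was possible because each region and sleep group is 1 library and the labels of the groups give no shared animals. Of 267 values recomputed, 224 kept their direction and side of the threshold, 13 no longer passed it, 13 newly passed it, 11 moved and 6 reversed. The median over libraries of the summed member level in gated cells, 6014 CPM, became 8886 CPM with a gate of 2 or more UMIs, 9479 CPM with a UMI of each gate gene, 3436 CPM in cells of 1000 or more UMIs, 6995 CPM with totals free of mitochondrial, hemoglobin and hormone genes, and 7304 CPM as a mean over cells. The share of gated cells with any member, 79.4%, became 72.2% in cells thinned to 500 UMIs and 96.5% with the stricter gate. The level in listed Endothelial cells, 10862 CPM, became 10142 CPM in cells of 1000 or more UMIs, 11740 CPM with totals free of mitochondrial and hemoglobin genes and 11337 CPM as a mean over cells. The cause of these shifts was not tested. The 6 reversed ratios were between Plvap and other gated cells: Slc7a5 was 2.02 in cells of 1000 or more UMIs and 1.23 in library 6, Cldn5 was 1.13 in library 6, and Abcg2 was 0.46 per endothelial UMI, 0.75 over all libraries summed and 0.63 in library 5. The count of members at least 2 times as high in gated cells was 9 or 10, beside 6.47% of all genes over all libraries summed. By the ratio alone, the members lower in Plvap cells numbered 5 in library 6 and 6 to 10 with the other settings. The share of all genes lower by the ratio alone was 26.3% in library 4 and 30.1% in its cells of 1000 or more UMIs. It was 41.4% in library 6 and 72.5% in library 5, and is not given for the further settings. Where intervals had to be apart the count of members was 6 in library 4, 2 in its cells of 1000 or more UMIs, 3 in library 5 and 0 in library 6. The shares of all genes, in the same order, were 1.05%, 0.63%, 0.198% and 0.598%. Mfsd2a passed a ratio of 2 with 4 settings, from 2.05 with a pseudocount of 1 CPM to 2.70 in cells of 1000 or more UMIs. Mfsd2a was found in 2.92% to 10.3% of gated cells, and its levels rest on 4 to 168 UMIs a library.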
